A study of Drosophila melanogaster with 6 samples.

Results

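The genes described here are the regulators that move cells of the fly wing disc from G1 into S phase and from G2 into mitosis. They were chosen by name: CycE, E2f1, Dp, CycD, Cdk4, Rbf and dap at the G1/S step, and stg, CycA and CycB at the G2/M step. A feature was counted where its annotation gave that gene as its single symbol. This found 7 of the 10 genes, with 1 feature each, among 10117 named genes and 11303 features tested. The annotation used here gave no feature dap, stg or CycA as its single symbol, and these 3 genes were not analysed here. Features with several symbols and FlyBase numbers were not searched for them. As a result Rbf stands alone for the inhibitors and CycB alone for the G2/M step.

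Transcript levels in the wing imaginal discs of Drosophila melanogaster larvae, from which the adult wing and back develop, were measured on 6 single-channel arrays of total RNA. In 3 arrays the discs carried ap>YAP/Yki, in which the apterous (ap) driver expressed YAP/Yki, the growth-promoting coactivator of the Hippo pathway. In the other 3 arrays the discs carried ap>YAP/Yki+dTcf/Pan-RNAi, the same transgene with RNA interference that targets pan. Its product dTcf binds DNA and carries out Wg (Wnt) signalling in the nucleus. Dissection took place 7 days after the transgenes were induced in both groups. Both groups thus expressed Yki, and no disc without Yki and no control hairpin stands among the samples. The ap driver is active in the dorsal compartment, while the RNA came from discs with both compartments, so each level is an average over cells with and without the transgenes. Separate crosses or animals are not stated for the replicates, so each p-value rests on a spread between arrays that may be technical only. The 7 measured genes of the disc epithelium had a summed signal of 13.96 to 13.97 on the log2 scale in the Yki arrays and 14.05 to 14.09 in the pan RNAi arrays. Single genes differed in opposite directions, with nub 2.18-fold lower and tsh 2.09-fold higher with pan RNAi. No array of another tissue stands among the samples, so this sum cannot check the label. Pan itself was not analysed here, so its depletion was not checked in these arrays.

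At the G1/S step of flies, Cyclin D with Cdk4 and Cyclin E with Cdk2 phosphorylate Rbf, the retinoblastoma-family protein that holds the transcription factor E2f1 and its partner Dp inactive. Free E2f1 and Dp switch on CycE and the genes of DNA synthesis, and Dap, the fly p21/p27-type inhibitor, blocks Cyclin E with Cdk2. At the G2/M step, Cyclin A and Cyclin B act with Cdk1, which the phosphatase String (stg) activates. In the wing disc, Wg signalling halts the cycle along the future wing margin late in larval life, and CycE is a known target of Yki.

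With pan RNAi, the levels of CycE and E2f1 were higher and that of Cdk4 was lower, all by less than 2-fold. Changes are given as Yki + pan RNAi minus Yki on the log2 scale with the SE of a limma fit over all features, n = 3 arrays per group. The words rose and fell are used at a Benjamini-Hochberg adjusted p under 0.05 over the 11303 features. By this rule 2 of the 7 genes rose, 1 fell and 4 did not pass, where 12.1% of all features rose and 13.4% fell, 25.5% in all. When 1 array was left out, 15.4% to 21.5% of all features passed, and 1 of the 7 genes rose without Yki replicate 2, Yki replicate 3 or pan RNAi replicate 2. The median change was 0.14 for the 7 genes and 0.03 for all features. Under the submitters' own rule, which also asks for a change of at least 2-fold, 0 of the 7 genes were called, against 1.53% of all features. In bulk discs, a higher level in each cell and a larger share of cells that express the gene cannot be told apart.

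**Figure D1:**
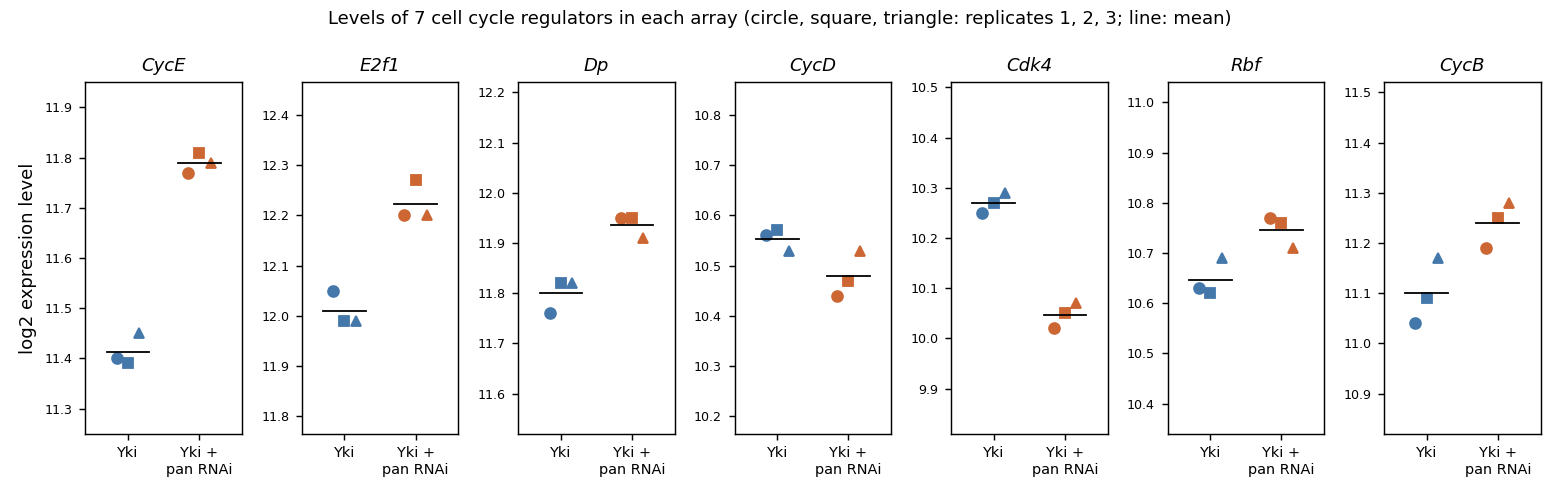
Log2 expression level (vertical axes, each spanning the same range) of 7 cell cycle regulators in the 3 Yki arrays (blue) and the 3 Yki + pan RNAi arrays (orange), with the group mean as a line. The groups lie furthest apart for CycE, with 11.39 to 11.45 against 11.77 to 11.81, and meet at 10.53 for CycD.

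CycE encodes Cyclin E, the rate-limiting activator of entry into S phase. Its log2 level was 11.40, 11.39 and 11.45 in the Yki arrays and 11.77, 11.81 and 11.79 in the pan RNAi arrays. All 3 pan RNAi arrays lay above all Yki arrays, with 0.32 between the nearest arrays of the groups. The level rose by 0.38 ± 0.04, a 1.30-fold rise (95% interval of the log2 change 0.28 to 0.48, limma adjusted p = 0.00192). This was the largest change among the 7 regulators, and 10.2% of all features had a larger absolute change. The call held in all 13 alternative fits of the data, with changes of 0.37 to 0.43. Those of a second deposited table with the same values and of all features could hardly differ from the fit reported.

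E2f1 encodes the activating E2F factor of flies. Levels of 12.05, 11.99 and 11.99 without pan RNAi stood against 12.20, 12.27 and 12.20 with it. The groups were again separate, the highest Yki array lying 0.15 below the lowest pan RNAi array. E2f1 rose 1.16-fold (0.21 ± 0.05, 95% interval 0.10 to 0.32, limma adjusted p = 0.0169). This call ended in 3 of 6 fits that left out 1 array. The adjusted p was 0.0634 without Yki replicate 2, 0.0582 without Yki replicate 3 and 0.0532 without pan RNAi replicate 2, with changes of 0.19 to 0.21. Fits with 1 array fewer have fewer degrees of freedom, and 15.4% to 21.5% of all features passed in them against 25.5% as reported.

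Dp encodes the partner with which E2f1 binds DNA. Its level was 11.76, 11.82 and 11.82 in the Yki arrays and 11.95, 11.95 and 11.91 in the pan RNAi arrays. The pan RNAi arrays were all above the Yki arrays, by at least 0.08. The change of 0.14 ± 0.04 did not pass the test (95% interval 0.03 to 0.24, limma adjusted p = 0.0646), and it passed in 4 of 13 alternative fits, among them that with each array centred on its median (0.19, adjusted p = 0.0271). The changes of E2f1 and Dp were set side by side within each array, as the E2f1 minus Dp difference relative to its Yki mean. This was 0.08, −0.04 and −0.04 in the Yki arrays and 0.04, 0.11 and 0.09 with pan RNAi, so the groups overlapped.

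Cdk4 encodes the kinase that Cyclin D activates and fell, opposite to CycE and E2f1. Its level was 10.25, 10.27 and 10.29 without pan RNAi and 10.02, 10.05 and 10.07 with it. All pan RNAi arrays were below the Yki arrays, with 0.17 between the nearest pair. The fall was 1.17-fold (−0.22 ± 0.04, 95% interval −0.32 to −0.12, limma adjusted p = 0.0115), and the call held in all 13 alternative fits, with changes of −0.23 to −0.17.

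CycD encodes Cyclin D, the partner of Cdk4, which in flies drives cell growth as well as division. The Yki arrays were at 10.56, 10.57 and 10.53 and the pan RNAi arrays at 10.44, 10.47 and 10.53. The highest pan RNAi array and the lowest Yki array were equal to 2 decimals. The change of −0.08 ± 0.05 did not pass the test (95% interval −0.18 to 0.03, limma adjusted p = 0.264), and 0 of 13 alternative fits called it. With each array centred on its median the CycD change was −0.02.

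Rbf, the retinoblastoma-family inhibitor of E2f1, was the measured inhibitor. Its level was 10.63, 10.62 and 10.69 in the Yki arrays and 10.77, 10.76 and 10.71 in the pan RNAi arrays. The pan RNAi arrays were higher by as little as 0.02 between the nearest pair. The change of 0.10 ± 0.05 did not pass (95% interval −0.01 to 0.21, limma adjusted p = 0.145), but 1 of 13 alternative fits called it, that with each array centred on its median (0.16, adjusted p = 0.0484).

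CycB encodes the mitotic Cyclin B that works with Cdk1. Its level was 11.04, 11.09 and 11.17 without and 11.19, 11.25 and 11.28 with pan RNAi. The groups were separate by 0.01, which is small beside the spread within each. The change of 0.14 ± 0.05 did not pass (95% interval 0.01 to 0.26, limma adjusted p = 0.105), although 1 of 13 alternative fits called it (adjusted p = 0.0439 with an intensity-dependent prior variance).

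**Figure D2:**
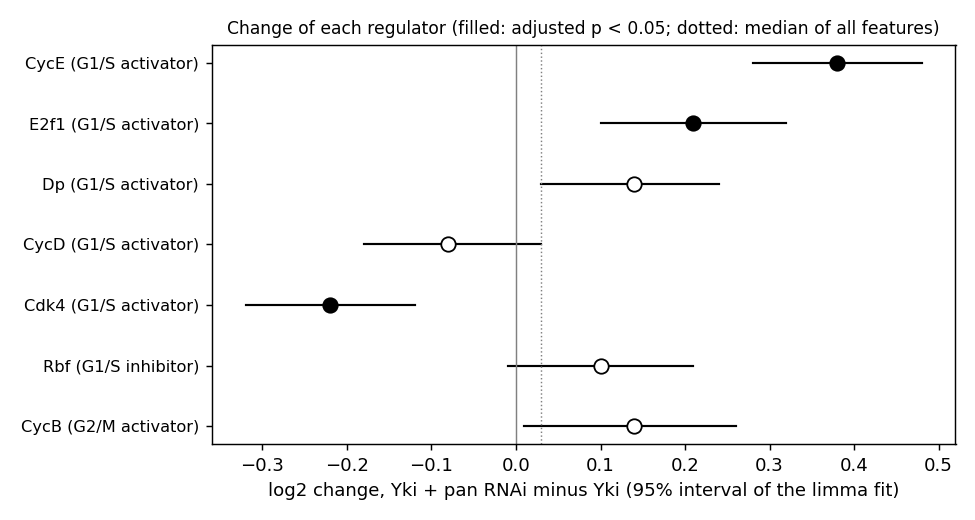
Log2 change (horizontal axis, Yki + pan RNAi minus Yki) of each of the 7 regulators with the 95% interval of the limma fit, filled where the adjusted p was under 0.05. CycE (0.38) and E2f1 (0.21) lie to the right of the median of all features (0.03, dotted line), Cdk4 (−0.22) lies to the left, and the other 4 genes are not called.

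Activators changed in both directions. Among the 6 measured activators 2 rose, 1 fell and 3 did not pass, with a median change of 0.14 and a range of −0.22 to 0.38, and the inhibitor Rbf had a change of 0.10. The groups did not overlap for any of the 7 regulators, and for 44.9% of all features. By array, the median deviation of the 6 activators from their Yki means was −0.02, −0.01 and 0.02 in the Yki arrays and 0.12, 0.15 and 0.14 in the pan RNAi arrays. Rbf, measured the same way, was at −0.02, −0.02 and 0.04 and then at 0.12, 0.12 and 0.06. With pan RNAi the median over the activators and the value of Rbf were thus both above 0, although Cdk4 and CycD lay below their Yki means in each pan RNAi array.

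The G1/S activators were also read in 2 sets made after their values were seen, CycE with E2f1 and Dp, and CycD with Cdk4. CycE, E2f1 and Dp together deviated from their Yki means by a mean of 0.24, 0.27 and 0.22 in the pan RNAi arrays. CycD and Cdk4 together deviated by −0.18, −0.15 and −0.11 in the same arrays. Within each array, the CycE minus Cdk4 difference relative to its Yki mean was 0.01, −0.02 and 0.02 without and 0.61, 0.62 and 0.57 with pan RNAi. It was the widest separation among the 6 pairs of regulators compared in this way. This follows from CycE having the highest and Cdk4 the lowest change of the 7 regulators. The CycE minus CycD difference reached 0.48, 0.49 and 0.40 with pan RNAi, and its highest Yki value was 0.06. CycE also moved further than Rbf in each pan RNAi array, by 0.24, 0.29 and 0.31, and further than CycB, by 0.28, 0.25 and 0.20. The E2f1 minus Rbf difference was 0.06, 0.00 and −0.06 without and 0.07, 0.15 and 0.13 with pan RNAi, where the nearest arrays of the groups were almost equal. These differences use levels within an array, so a shift common to all genes of an array drops out of them. They show unequal changes and not which gene of a pair is unchanged.

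**Figure D3:**
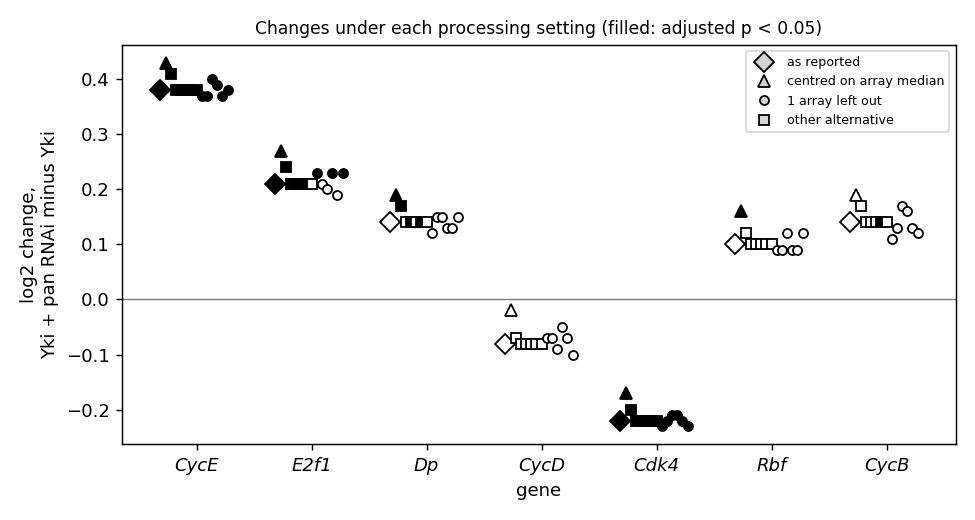
Log2 change (vertical axis, Yki + pan RNAi minus Yki) of each regulator as reported (diamonds), with arrays centred on their medians (triangles), with 1 array left out (circles) and under the other alternatives (squares), filled where the adjusted p was under 0.05. CycE and Cdk4 are filled throughout, at 0.37 to 0.43 and −0.23 to −0.17, and CycD is open throughout, whereas E2f1, Dp, Rbf and CycB change between filled and open.

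The kinase partners and other cyclins of the same steps were read from a list of 10 genes, 7 of them measured. Of these, 3 rose, 0 fell and 4 did not pass, with a median change of 0.12, where 12.1% of all features rose and 13.4% fell. An unadjusted limma p under 0.05 was reached by 4 of the 7. Cks30A, a small Cdk-binding subunit, was at 12.53, 12.54 and 12.54 without and 12.78, 12.77 and 12.75 with pan RNAi and rose by 0.23 ± 0.04 (limma adjusted p = 0.00778). Cdk2, the kinase of Cyclin E, was at 11.93, 12.01 and 12.05 and then at 12.24, 12.18 and 12.14 (0.19 ± 0.05, limma adjusted p = 0.0395). CycB3, a mitotic cyclin, had a like change (0.19 ± 0.05, limma adjusted p = 0.0332). The call of Cdk2 ended in 6 of 6 fits that left out 1 array and that of CycB3 in 5 of 6. The list count was 1 or 2 in these fits, and 1 without each of the Yki replicates 1, 2 and 3 and the pan RNAi replicates 1 and 2.

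Genes that restrain mitotic entry or remove mitotic cyclins gave 3 measured members of 5, of which 2 rose and 0 fell, where 12.1% of all features rose and 13.4% fell. Wee1 and Myt1 were the listed genes not measured. The measured member that did not pass, rux, had a negative change and groups that overlapped (−0.14 ± 0.10, limma adjusted p = 0.343). Here trbl, which promotes the destruction of String protein, rose by 0.17 ± 0.05 (limma adjusted p = 0.0399), and fzr, the Cdh1-type activator of the anaphase-promoting complex in G1, by 0.18 ± 0.05 (limma adjusted p = 0.0488). The calls of both were near the threshold and each ended in 5 of 6 fits that left out 1 array. The list count of 2 became 0 without Yki replicate 1 or 3 or without pan RNAi replicate 1 or 2, and 1 without Yki replicate 2 or pan RNAi replicate 3. Among 4 measured further activators of mitotic entry, 1 rose and 0 fell (3 had an unadjusted p under 0.05 in limma), so that 25% of them were called, near the 25.5% of all features. That gene was twe, the Cdc25 phosphatase known from meiosis, at 6.39, 6.27 and 6.32 without and 6.88, 6.76 and 6.62 with pan RNAi (0.43 ± 0.07, limma adjusted p = 0.0083). It was a dim feature and was not tested when the dimmest features were left out. The list count was 2 without Yki replicate 1.

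Of the dREAM complex, in which Rbf-family proteins and E2f2 repress genes together with Mip proteins, 7 of 8 listed subunits were measured. Rbf2, the other retinoblastoma-family gene of flies, was the 1 member that rose, from 9.21, 9.22 and 9.17 to 9.70, 9.69 and 9.57. All pan RNAi arrays were well above the Yki arrays (0.45 ± 0.05, limma adjusted p = 0.00199). The other 6 subunits did not pass, and 2 of 7 had an unadjusted p under 0.05. The 14.3% of the list that rose is near the 12.1% of all features. The median change was 0.09. E2f2, the repressive E2F and named here after its values were seen, changed by −0.17 ± 0.06 (limma adjusted p = 0.0696).

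Genes listed for the degradation of Cyclin E, E2f1 and the mitotic cyclins, many of them parts of ubiquitin ligases, mostly did not pass the test. The list left out fzr, which was counted among the genes that restrain mitotic entry or remove mitotic cyclins. Of 22 measured genes 3 rose, 1 fell and 18 did not pass, which is 18.2% called against 25.5% of all features, and the median change of 0.03 equalled that of all features. The members that rose were l(2)dtl (0.34 ± 0.06, limma adjusted p = 0.00838), the fly Cdt2, which directs the Cul4 ligase to E2f1 and Dup in S phase, vih (0.30 ± 0.06), the ubiquitin-conjugating enzyme of the anaphase-promoting complex, and the F-box gene Skp2 (0.23 ± 0.06). Roc1a, the RING subunit of cullin ligases, fell by 0.28 on the log2 scale (limma adjusted p = 0.0138). The call of Skp2 ended in 5 of 6 fits that left out 1 array, and without pan RNAi replicate 1 the list count fell to 2 and Roc1a had an adjusted p of 0.0505.

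**Figure D4:**
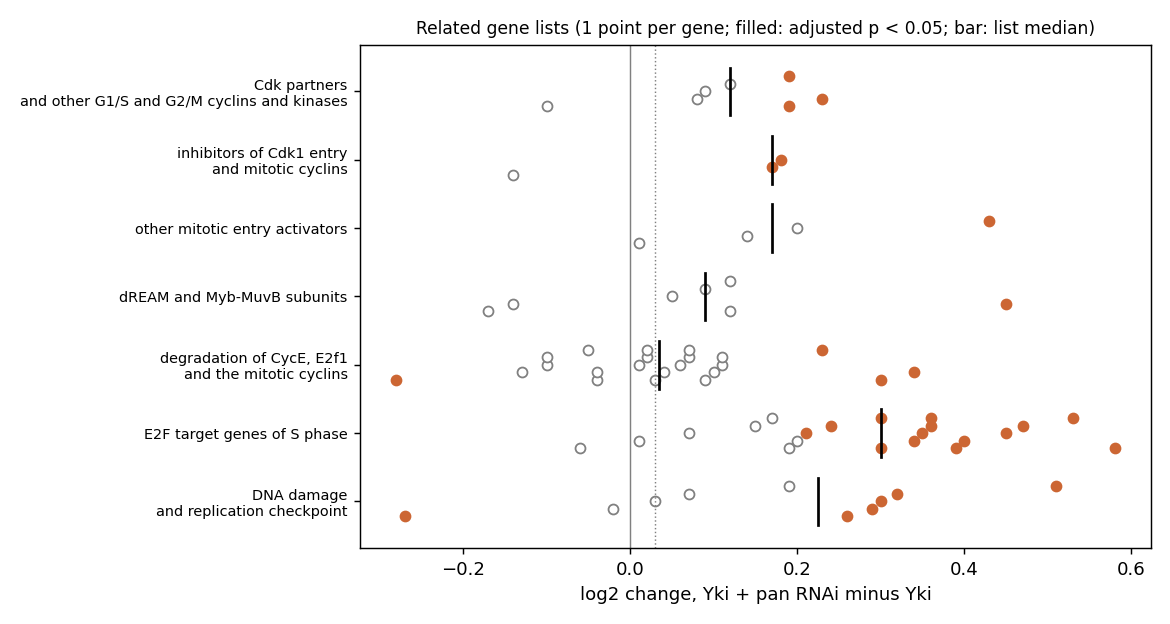
Log2 change (horizontal axis, Yki + pan RNAi minus Yki) of each gene in 7 lists related to the regulators, filled where the adjusted p was under 0.05, with the list median as a bar and the median of all features (0.03) as a dotted line. The median of the E2F target list lies at 0.30 and that of the degradation list at 0.03.

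Most of the measured genes of DNA synthesis that were listed as E2F targets rose. Whether E2F acts on each of them in these discs was not tested. Of 21 measured genes 14 rose, 0 fell and 7 did not pass (17 had an unadjusted p under 0.05 in limma). This is 66.7% risen against 12.1% of all features, and the median change was 0.30. This list, like the others, was chosen with earlier results of these data known. PolA1, the catalytic subunit of DNA polymerase alpha, was at 9.97, 9.93 and 9.90 without and 10.32, 10.33 and 10.31 with pan RNAi (0.39 ± 0.04, limma adjusted p = 0.00171). Orc1, of the origin recognition complex, was at 8.88, 8.86 and 8.90 and then at 9.45, 9.40 and 9.39, with 0.49 between the nearest arrays of the groups. PCNA, the sliding clamp of replication and named here after its values were seen, was at 12.73, 12.66 and 12.66 without and 12.73, 12.59 and 12.75 with pan RNAi, and the groups overlapped (0.01 ± 0.06, limma adjusted p = 0.943). The count of listed genes that rose was 10 to 14 when 1 array was left out.

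Among 10 measured genes of the DNA damage and replication checkpoint, which hold the Cdks inactive when DNA is incomplete, 5 rose and 1 fell, where 12.1% of all features rose and 13.4% fell, and the median change was 0.23. mus101, the fly TopBP1, was at 8.23, 8.12 and 8.14 without and 8.76, 8.68 and 8.59 with pan RNAi (0.51 ± 0.06, limma adjusted p = 0.00227). The kinase genes lok (Chk2), tefu (ATM) and mei-41 (ATR) rose by 0.32 ± 0.06, 0.29 ± 0.05 and 0.26 ± 0.05. In contrast to these, grp, the fly Chk1, was the member that fell, from 10.84, 10.93 and 11.00 to 10.59, 10.60 and 10.77 (−0.27 ± 0.07, limma adjusted p = 0.0309). The call of grp ended without Yki replicate 2 or 3 and without pan RNAi replicate 1 or 2 (adjusted p = 0.0862 to 0.101), and with each array centred on its median (−0.21, adjusted p = 0.0894).

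Likeness to CycE and to E2f1 was measured as Pearson's r of the log2 levels over the 6 arrays, across 10116 other named genes. The 5 genes most like CycE were aurB, a mitotic kinase (r = 0.9993), mbl, a splicing regulator (0.9985), mei-S332, a protector of centromeric cohesion (0.9981), Exn (0.9975), and dup, the replication licensing factor Cdt1 (0.9972). Those most like E2f1 were Mgat4a, a glycosyltransferase gene (r = 0.9987), the Polycomb group gene Scm (0.9963), CG7564 (0.9957), psq (0.9953) and the protease gene S2P (0.9951). aurB, the nearest to CycE, was at 8.52, 8.50 and 8.60 without and 9.10, 9.12 and 9.10 with pan RNAi. With 6 arrays in 2 groups such values mainly follow the difference between the groups: r with CycE was over 0.95 for 455 genes (4.5%) and r with E2f1 for 441 (4.36%). Among the regulators, r with CycE was 0.96 for E2f1, 0.94 for Dp, 0.91 for Rbf, 0.87 for CycB, −0.80 for CycD and −0.97 for Cdk4.

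Genes listed as markers of other cell types differed between the groups as well, where 12.1% of all features rose and 13.4% fell. Whether each marker is specific to its cell type in these discs was not tested. Of 7 measured haemocyte markers 5 rose and 0 fell, and their summed signal was 10.44 to 10.57 on the log2 scale in the Yki arrays and 11.07 to 11.20 in the pan RNAi arrays. The brightest of these markers, ush, had group means of 9.55 and 10.14 and weighed most in this sum, so the sum is not a measure of haemocytes alone. The others that rose were dimmer, with Yki means of 6.97 for Hml, 6.22 for He, 7.22 for Pxn and 7.49 for Sr-CI. Their changes were 0.94, 0.71, 0.50 and 0.98, while gcm and lz did not pass. Of 6 myoblast markers 1 rose and 4 fell (11.42 to 11.52 against 11.14 to 11.22). The gene that rose was sns, with group means of 8.58 and 10.11, which offset part of the falls in this sum. Those of twi, zfh1, htl and Him were −0.98, −1.41, −1.37 and −0.56. Of 5 tracheal markers 0 rose and 4 fell (13.84 to 13.91 against 13.31 to 13.46). The brightest, verm, did not pass, and tnc ran from 9.36 to 10.66 within the pan RNAi arrays. The dimmest, btl, had group means of 7.22 and 6.85 and added little to the sum. The 5 markers of neurons and glia gave 1 rise (10.36 to 10.42 against 10.48 to 10.60), and the 3 of fat body gave no call (11.77 to 11.94 against 11.86 to 11.92). The fat body sum mostly followed ppl, its brightest gene, with group means of 11.73 and 11.81. Lsp2 was at 7.74, 7.08 and 8.81 without and 6.74, 6.82 and 6.92 with pan RNAi (−1.05 ± 0.39, limma adjusted p = 0.0926). Among the disc epithelium genes 3 rose and 4 fell. The part of these cells in the changes of the cell cycle genes was not tested.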

How the data were processed

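Wing discs of 2 groups, 3 arrays each, grouped by the sample titles, were compared. Per the labels, TRIzol extracts of total RNA carried a biotin label. The log2 expression levels deposited by the authors, 2.74 to 14.06, were used as given. Not given in the sources used here are the array type, background correction, normalization and build. A second deposited table held the same 11325 features within 5.0e-09. Each feature reached at least 5.91 in 3 or more arrays, so genes silent in both groups may not be covered. Array medians were 8.41 to 8.515. Arrays correlated at 0.994 to 0.996 within a group and at 0.980 to 0.986 across groups, and the number of arrays limits the precision.

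Features were named from the platform annotation (10156 with 1 symbol, 313 with several, 856 with none), and 17 with 1 symbol but several FlyBase numbers stayed unnamed. Symbols were taken by Entrez number for 9975 of 10139 features (RefSeq, Release 6 plus ISO1 MT), whether or not this changed them. For 22 genes with several features the brightest was kept. Groups were compared with limma 3.58.1 in R 4.3.3 (lmFit, eBayes, no covariate), adjusting over 11303 features by Benjamini-Hochberg, and the code was tested on simulated data. Alternatives were median centring, quantile normalization, the second table, a filter on dim features, all features, an intensity-dependent robust prior, the replicate number as a block, each array left out and the submitters' 2-fold minimum. Per the labels, the submitters also used limma.

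Named are the 10 regulators, up to 4 genes with the lowest p past the threshold in each of 7 related lists (or the 1 with the lowest p), genes making up counts of 5 or fewer, and the 5 genes most like CycE and E2f1. Members and lists were chosen with earlier results of these data known.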

Additional observations from a re-analysis of the deposited data

How the results depend on the processing

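CycE and Cdk4 kept their direction and their side of the threshold in all 13 alternative fits, and CycD was never called. The fits of the second table and of all features used nearly the same data as the fit reported. Of the 7 regulators, 4 rose with each array centred on its median and 4 with an intensity-dependent robust prior, against 2 as reported, 1 with the replicate number as a block and 1 to 2 when 1 array was left out, and 1 fell in each of these. No label says that equal replicate numbers share an origin, so the numbers were not taken as pairs. Deviations from the group means correlated at −0.127, −0.098 and 0.162 for same-numbered arrays and at −0.281 to 0.345 for the others. With 3 arrays per group these values cannot settle whether the arrays are paired. Under the replicate block E2f1 had a limma adjusted p of 0.0535. With the 2-fold minimum 0 regulators were called, 0 rose and 0 fell, and 0 genes in each of the 7 related lists. The median change of the activators was 0.19 with median centring, 0.17 with quantile normalization and 0.11 to 0.16 without 1 array, and that of Rbf was 0.16 with median centring and 0.09 to 0.12 without 1 array.

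Over all features, 1369 were higher and 1518 lower as reported, 2096 and 1082 with median centring, which moved the median change from 0.03 to 0.09, and 30 and 143 with the 2-fold minimum. Leaving out 1 array gave 765 to 1153 higher and 979 to 1282 lower, with over 1.5 times fewer higher without Yki replicate 2 (789), Yki replicate 3 (809) and pan RNAi replicate 1 (765), and fewer lower without Yki replicate 3 (1001) and pan RNAi replicate 1 (979). The related lists had these counts of calls. The list of Cdk partners had 1 with the replicate block and 1 to 2 without 1 array. The list of mitotic inhibitors had 0 with the block and 0 to 1 without 1 array. The further mitotic activators had 3 with median centring, 2 with quantile normalization, 0 without dim features and 1 to 2 without 1 array. The dREAM list had 2 without dim features, 2 with the other prior and 1 without any 1 array. The degradation list had 2 to 4, the E2F target list 10 to 14 and the checkpoint list 4 to 7 without 1 array. PCNA, not called, had changes of −0.02 to 0.06 without 1 array, some of opposite sign to the 0.01 reported. Where fewer arrays or the block were used, fewer degrees of freedom were left, and otherwise the cause was not tested. Signal over background was not given with the deposited values, so its limit on dim genes such as twe is unknown.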

Other observations

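A further 8 cyclin and Cdk genes were taken by symbol after the data were seen, most of them with roles in transcription instead of the cell cycle. Of these 0 rose, 1 fell and 7 did not pass, with a median change of −0.03, and 13.4% of all features fell. The gene that fell was Cdk9, the kinase of the transcription elongation factor P-TEFb, which was at 10.79, 10.89 and 10.89 in the Yki arrays and 10.62, 10.59 and 10.57 in the pan RNAi arrays (−0.26 ± 0.05). Its partner CycT was at 10.53, 10.52 and 10.46 without and 10.53, 10.66 and 10.53 with pan RNAi, a change of 0.07 ± 0.06. Cdk8 and its partner CycC, both of the Mediator complex, changed by 0.08 ± 0.05 and −0.08 ± 0.05, and neither passed the limma test. Whether these genes differ from the cell cycle regulators was not tested.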
